A study of Mus musculus with 2 samples.

Results

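Cxcl9 macrophage-like cells were tumour macrophages picked from single-cell counts by a rule on marker genes, 203 barcodes among 7355 of adequate depth. Counts were UMIs, unique molecular identifiers, each standing for one captured RNA molecule. Barcodes of adequate depth had at least 4000 UMIs, of which at most 10% were mitochondrial. A member had at least 0.4% of its UMIs in the complement genes C1qa, C1qb and C1qc, and at least 3 UMIs of Cxcl9, Calhm6 and Gbp2b together, called the gate below. It had at most 2 UMIs in each of 3 sums that mark other macrophage states, Ctsk with Atp6v0d2 and Pf4, Lyve1 with Fcna and Cbr2, and Negr1 with Ptprm and Fcrl5. Arg1 made up under 0.1% of its UMIs. Dividing cells, T cells and neutrophils were kept out by limits of 3 UMIs of Mki67 and Top2a, 1 UMI of the Cd3 genes, and 1% of UMIs in S100a8 and S100a9.

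Both libraries came from CD45+ immune cells sorted from B16-hAXL tumours on day 15. B16 is a mouse melanoma line, hAXL is taken to mean human AXL, and the mice are labelled WT. The PBS group had received PBS and the 6C5 group 200 µg of 6C5, an antibody against AXL, both intraperitoneally. There was 1 library per group, with 30 members in PBS and 173 in 6C5. Strain, sex, age, injection times and the number of mice are not given in the sources used here. Every difference below therefore compares these 2 libraries, has no replicate check and no test, and carries a 95% interval that covers counting error only.

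CXCL9 is a chemokine that draws T cells and NK cells through their receptor CXCR3. Macrophages make it when interferon gamma binds its receptor, which also turns on guanylate-binding proteins (such as Gbp2b), GTPases that act against microbes inside cells. Calhm6 is an interferon-induced member of a family of large-pore channels. In tumours, macrophages with such a programme are known as a source of T cell-attracting chemokines and as antigen-presenting cells.

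The members were of similar depth in both libraries. Median counts were 11580 UMIs per member in PBS (range 4176 to 19691) and 11607 in 6C5 (4178 to 36234). Summed over members, 345002 UMIs stood behind the PBS values and 2137920 behind the 6C5 values. Levels are given as CPM, UMIs of a gene per 1000000 UMIs of the members. A single UMI was worth 2.90 CPM in PBS and 0.468 in 6C5, so low PBS values rest on few molecules. Mitochondrial UMIs made up a median of 0.624% of a PBS member and 0.273% of a 6C5 member, and their part in the differences below was not tested. Free RNA, estimated from melanoma genes, made up 1.87% and 1.76% of members' UMIs. Among barcodes of adequate depth, 25 sequences occurred in both libraries, and none was a member in both. The sequences of 2 6C5 members were among the 25, and no PBS member's was.

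Macrophage markers that the rule did not use were detected in both libraries. Cd68, a lysosomal macrophage protein, had a UMI in 29 of 30 PBS members and 172 of 173 6C5 members, Fcgr1 in 28 and 172 and Adgre1 in 25 and 156. All 11 markers of the list summed to 19374 CPM in PBS and 19894 in 6C5, much of it the C1q genes, which the rule required. The rule also limited the Cd3 genes, S100a8 and S100a9. Of T cell markers it did not limit, Trac, Cd8a and Cd4 were at 0 UMIs in PBS and had a UMI in 2, 1 and 4 of 173 members in 6C5. Of the B cell markers, Cd79a and Ms4a1 were at 0 in PBS, and the list summed to 110.1 and 38.8 CPM, nearly all of it Cd79b in PBS. Neutrophil markers summed to 84.1 CPM in PBS (3 of 6 at 0) and 317 in 6C5, where 1 cell held 33.6% of the S100a8 UMIs and Retnlg was at 0. NK markers summed to 78.3 and 59.4 CPM, and a single PBS cell held all PBS UMIs of Gzma. Dendritic cell markers summed to 328 and 259 CPM for type 1 cells, 142 and 49.1 for type 2 cells and 23.2 and 63.1 for mature cells. Monocyte markers were at 1861 and 2124 CPM, with a median of 2 UMIs per PBS member and 18 per 6C5 member. Their defining gene Ly6c2 had a UMI in 12 of 30 PBS members and 143 of 173 6C5 members. Monocyte markers thus reached more of the 6C5 members, and their part in the differences below was not tested.

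Members made up a larger share of macrophages in the 6C5 library. They were 3.11% of C1q macrophage-like barcodes in PBS (2.11 to 4.41, 30 of 965) and 16.9% in 6C5 (14.6 to 19.3, 173 of 1024). That is a ratio of 5.43 (3.73 to 7.93). C1q macrophage-like barcodes themselves were 27.6% and 26.5% of barcodes of adequate depth.

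Much of this difference arose where the rule leaves out other macrophage states. The gate alone was met by 30.2% of C1q macrophage-like barcodes (291 of 965) in the PBS library and 41.0% (420 of 1024) in the 6C5 library, with a ratio of 1.36 (1.21 to 1.53). Of the barcodes over the gate, 207 of 291 in PBS (71.1%) also exceeded the limit on Negr1, Ptprm and Fcrl5, against 59 of 420 in 6C5 (14.0%). Macrophages over that limit were 52.8% of C1q macrophage-like barcodes in PBS and 8.20% in 6C5. They were not short of gate genes: 207 of 510 in PBS (40.6%) and 59 of 84 in 6C5 (70.2%) met the gate. The limit on Ctsk, Atp6v0d2 and Pf4 was exceeded by 56.7% and 45.5% of barcodes over the gate, and the limit on Lyve1, Fcna and Cbr2 by 25.8% and 15.2%. Without these 3 exclusions the ratio of shares was 1.31 (291 and 403 cells). With every barcode thinned to 4000 UMIs before the rule it was 2.47 (78 and 178 cells).

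**Figure D1:**
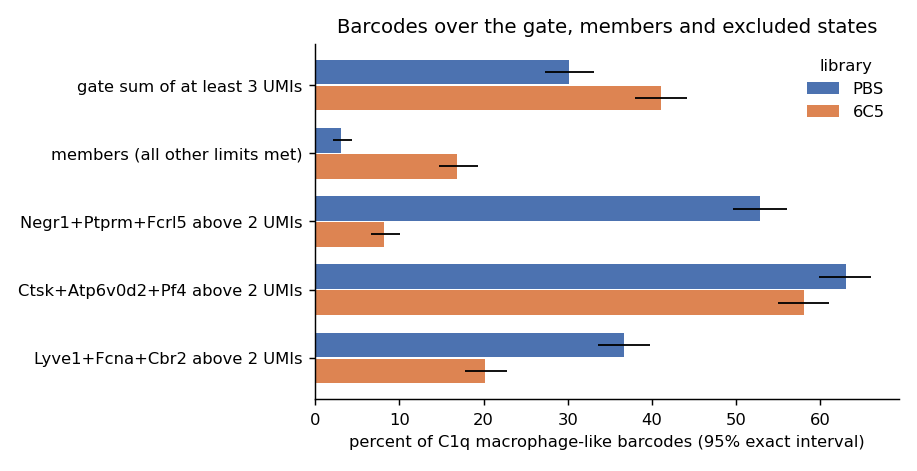
Percent of C1q macrophage-like barcodes (horizontal axis) in each library that met the gate, were members, or exceeded the limits on other macrophage states. Lines are exact 95% binomial intervals. Barcodes over the gate differed modestly (30.2% and 41.0%), while those over the Negr1, Ptprm and Fcrl5 limit were 52.8% in PBS and 8.20% in 6C5.

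The gate cut a continuous range rather than separate cells. Among barcodes that met every other limit, 54 in PBS and 95 in 6C5 had no gate UMI, 4 and 20 had 2 and lay just outside, and 5 and 23 had 3 and lay just inside. Members had a median of 10 gate UMIs in PBS and 11 in 6C5, with highest counts of 57 and 113. All 3 gate genes were detected in 2 of 30 PBS members and 56 of 173 6C5 members, and a single one in 12 and 45. Cxcl9 itself had no UMI in 5 PBS members and 46 6C5 members, which entered on the other gate genes.

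The gate genes, which chose the members and so are given as a description, were used in different proportions in the 2 libraries. Cxcl9 was at 1289.8 CPM in the PBS members and 940.2 in the 6C5 members (ratio 0.729, 0.657 to 0.810), and at 9.56 and 14.1 CPM in barcodes under the gate. Calhm6 was at 229 and 403 CPM (ratio 1.76, 1.40 to 2.25). Gbp2b was at 26.1 and 119 CPM (ratio 4.55, 2.36 to 10.1), from 9 UMIs in PBS. Cxcl9 therefore carried more of the gate in PBS members, and Calhm6 and Gbp2b more of it in 6C5 members. Macrophages over the Negr1, Ptprm and Fcrl5 limit, which are no members, also held Cxcl9, at 444 CPM in PBS and 559.7 in 6C5.

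The rule fixed that gate genes were detected in members, so the shares below are a description. After each cell was thinned to 4000 UMIs, Cxcl9 had a UMI in 83.3% of PBS members and 64.2% of 6C5 members, against 1.16% and 1.99% of T cells, which should lack it (median depths of T cells 10386 and 10468 UMIs). The unthinned shares were 83.3% and 73.4%. For Calhm6 the thinned shares were 36.7% and 64.7% of members, against 10.1% and 12.2% of T cells.

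On GRCm38 (GENCODE M21), Cxcl9 lies at chr5:92321347-92328079, Calhm6 at chr10:34126067-34127984 and Gbp2b at chr3:142594847-142619179. The 250 bases before each RefSeq start (GRCm38.p6) were searched on both strands for the core of the interferon-stimulated response element, the letters GAAA, any 2 bases and GAAA, which binds interferon regulatory factors. Calhm6 and Gbp2b hold it and Cxcl9 has no such letters in this window. It occurred in 3.46% of all 27025 genes with a window. Of the 16 interferon-induced GTPase genes listed for this report, 10 had a window and 9 of these held it. Of the 15 genes highest in members over the comparison barcodes described below, 12 had a window and 3 of these held it. The windows below are examples that hold it, from gate genes, GTPases and the chemokine Cxcl10. They show 25 bases on each side of the element, with the element in capitals (as its reverse complement in the Gbp genes).
Calhm6: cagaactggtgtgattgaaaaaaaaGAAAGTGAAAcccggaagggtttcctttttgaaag
Gbp2b: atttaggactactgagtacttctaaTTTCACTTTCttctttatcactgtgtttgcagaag
Gbp2: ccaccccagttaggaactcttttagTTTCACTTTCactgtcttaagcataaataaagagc
Gbp5: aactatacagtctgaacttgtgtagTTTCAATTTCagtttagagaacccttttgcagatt
Cxcl10: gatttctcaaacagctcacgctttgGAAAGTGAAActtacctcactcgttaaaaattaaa
They lie at chr10:34128002-34128061 (minus strand), chr3:142594685-142594744 (plus strand), chr3:142620579-142620638 (plus strand), chr3:142496744-142496803 (plus strand) and chr5:92349068-92349127 (minus strand). The gamma-activated site TTCNNNGAA was found in 6 of the 10 GTPase windows and in 8.13% of all windows. A match of letters describes the sequence and does not show binding.

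Of the 2 markers that the rule did not use, Il18bp set the members apart and Ms4a7 did less so. Il18bp encodes the secreted antagonist of interleukin 18 and was at 133 CPM in PBS members against 50.2 in barcodes that met every other limit but had under 3 gate UMIs. In 6C5 it was at 239 against 62.8. Those 81 PBS and 147 6C5 barcodes are called comparison barcodes below, and their median depths were 9429 and 9041 UMIs. Ms4a7, a membrane protein of macrophages, was at 487 against 516 CPM in PBS and 1189 against 824 in 6C5. It did not stand above the comparison barcodes in PBS.

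Outside the rule, interferon-type genes led the members over the comparison barcodes in both libraries. Ratios are log2 of CPM plus 1, and a gene counted as called past 1.5-fold in both libraries. Of 1649 genes with at least 100 UMIs in each library over both sets, 45 were called higher (2.73%) and 29 lower (1.76%). Since the members were chosen on gate genes of the same cells, these values describe the gate and support nothing further. List genes were counted from 50 UMIs over the members of both libraries, a lower limit than that of the 1649 genes. The list counts and the shares of the 1649 genes are thus not of like sets. Guanylate-binding proteins and the related IRG GTPases had 12 of 16 members higher in both libraries. Their medians were 1.36 in PBS and 1.38 in 6C5, and those of the 1649 genes were -0.011 and -0.0039. MHC class I presentation genes had 11 of 18 higher in both (medians 0.65 and 0.63), and type I interferon-stimulated genes 8 of 27 (0.64 and 0.45). MHC class II genes had 0 of 8 higher in both, with medians of 0.21 in PBS and 0.81 in 6C5. Lists of inflammatory, hypoxia and lipid genes had no member higher in both. Macrophages over the Negr1, Ptprm and Fcrl5 limit alone held nearly as much GTPase RNA as members. The list summed to 1757 CPM in PBS and 1890 in 6C5 there, 2009 and 2031 in members and 606 and 759 in comparison barcodes. Their class I list summed to 16394 and 21288 CPM, against 18336 and 21988 in members. Type I and class II lists summed to less there than in members, at 5861 and 12984 CPM and at 12268 and 27643 CPM.

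Gbp2 was among the genes with the largest ratios (3.23 in PBS and 1.63 in 6C5), at 661 CPM in PBS members against 69.3 in the comparison barcodes. The GTPase Ifi47 was at 1.54 in PBS and 1.11 in 6C5. AW112010, an interferon-induced transcript with a short open reading frame, was at 1.48 in PBS and 2.37 in 6C5. The peptide transporter genes Tap1 and Tap2, which load MHC class I, were 0.90 and 0.94 higher in PBS and 0.85 and 0.99 in 6C5. The costimulatory receptor Cd40 was at 1.23 in PBS and 0.89 in 6C5, and the activating IgG receptor Fcgr4 at 1.12 in PBS and 0.90 in 6C5. The fibrinogen-like protein Fgl2, the hexokinase Hk3, the aminopeptidase Lap3, Ly6a, Gbp7, Ifit2 and the cytoskeletal protein Zyx completed the list apart from Ccl8. The chemokine Ccl8 ranked first (1.97 in PBS and 2.19 in 6C5), but 1 cell held 81.8% of its UMIs in PBS members.

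Spp1 and Cxcl3 were among the genes lowest in members. Spp1, the secreted phosphoprotein osteopontin, was at 43.5 CPM in PBS members against 687 in the comparison barcodes, and at 388 against 1913 in 6C5. The neutrophil-attracting chemokine Cxcl3 had 0 UMIs in PBS members against 101 in the comparison barcodes, and was at 73.4 against 275 CPM in 6C5. The tetraspanin Cd9 (-1.98 in PBS and -1.60 in 6C5), the membrane protein Emp1 (-2.85 in PBS and -1.59 in 6C5), the transcription factor Bhlhe40, annexin A1 (Anxa1), the heat-shock gene Hspa1b, thrombospondin 1 (Thbs1), the lipid droplet gene Hilpda and the cytokine oncostatin M (Osm) were the others. These 8 genes were at -1.02 or below in both libraries.

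**Figure D2:**
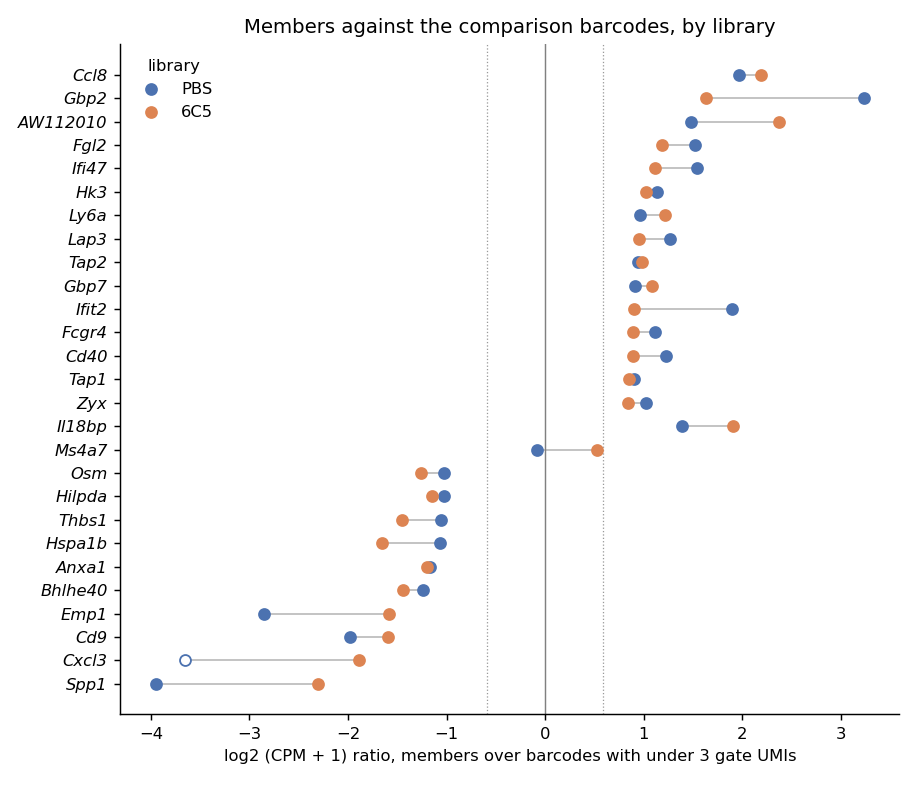
Log2 ratio of CPM plus 1 in members over comparison barcodes (horizontal axis) for the 15 highest and 10 lowest genes and for Il18bp and Ms4a7, with 1 point per library. Dotted lines mark 1.5-fold and the open point is a bound from 3 counts for a gene at 0 UMIs. The 15 highest genes lie right of the dotted line in both libraries, while Ms4a7 lies within the dotted lines in both.

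Between the libraries, members of 6C5 held more inflammatory chemokine and cytokine RNA than members of PBS. A gene was called here when its ratio of CPM plus 1 passed 1.5-fold. Of 4992 genes with at least 50 UMIs over both libraries, 700 were at least 1.5-fold higher in 6C5 (14.0%) and 629 lower (12.6%), with a median log2 ratio of -0.015. TMM factors, another scaling, moved that median to 0.17 and the counts to 1104 higher and 348 lower, so list values are read against the median of all genes. With each gene's highest cell left out of each library, an alternative chosen after seeing the data, the counts were 1169 and 404. That setting takes 1 cell of 30 from PBS and 1 of 173 from 6C5. Leaving out members with markers of other lineages kept 5 PBS and 65 6C5 members, in which the log2 ratios of Il18bp, Irf1, Stat2, Cd274 and Cd36, described as higher below, were -0.0019, -0.34, -0.69, -0.14 and -0.33.

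Of 14 measured inflammatory genes, 9 were higher in 6C5 and 0 lower, with a median log2 ratio of 0.89. The chemokines Cxcl1, Cxcl2 and Cxcl3, which attract neutrophils through CXCR2, stood at its top. Cxcl1 had 3 UMIs in 2 PBS members and 963 UMIs in 57 6C5 members, 8.70 and 450.4 CPM (51.8-fold, 17.7 to 252). Cxcl2 was at 1238 CPM in the PBS members and 7263 in the 6C5 members (5.87-fold, 5.33 to 6.48). Cxcl3 had 0 UMIs in PBS and 157 in 15 6C5 members, at least 8.45-fold higher against a floor of 3 counts over the PBS members, and 1 cell held 36.3% of them. Cxcl2 was thus broad and Cxcl3 held by few cells: after thinning, Cxcl2 had a UMI in 50% of PBS members and 91.9% of 6C5 members, against 30.6% and 45.2% of T cells. Unthinned, 18 of 30 and 163 of 173 members had one. All 3 chemokines were lower in members than in comparison barcodes of the same library, and more so in PBS. The log2 ratio was -4.82 in PBS and -0.46 in 6C5 for Cxcl1, and -1.90 and -0.38 for Cxcl2. The between-library ratios in members thus rest partly on PBS members that were low beside other PBS macrophages.

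Tnf, the gene of tumour necrosis factor, was at 1075 and 2103 CPM (1.96-fold, 1.76 to 2.18). Il1b was at 1594 and 3306 CPM (2.07-fold, 1.90 to 2.27), and Il1a at 17.4 and 74.4 CPM from 6 UMIs in 2 PBS cells. The interleukin 1 receptor antagonist Il1rn was at 542 and 1073 CPM (1.98-fold, 1.71 to 2.31). In these 2 libraries both Il1b and the gene of its antagonist were higher in 6C5. The intervals for Tnf, Il1b and Il1rn lay above 1, but they leave out the spread between cells. The dissociation-stress list, immediate-early and heat-shock genes that tissue digestion can induce, had 4 of 15 higher and 0 lower (median 0.48), led by the phosphatase Dusp1 (1.07) and the transcription factor Atf3 (0.94). Its part in the inflammatory values was not tested.

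Cxcl1, Cxcl2 and Cxcl3 lie together on mouse chromosome 5, and the 250 bases before each start hold a match to the kappa B consensus, the element bound by nuclear factor kappa B. The match was searched on both strands and occurred in 8.23% of all windows. The windows are shown because each of the 3 genes was higher in 6C5 members than in PBS members, with the match in capitals. Whether the same members held all 3 was not tested.
Cxcl1: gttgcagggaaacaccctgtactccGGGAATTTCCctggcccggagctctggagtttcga
Cxcl2: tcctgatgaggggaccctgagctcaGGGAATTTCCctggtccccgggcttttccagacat
Cxcl3: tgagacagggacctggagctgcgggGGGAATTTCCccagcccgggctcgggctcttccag
They lie at chr5:90891149-90891208 (plus strand), chr5:90903777-90903836 (plus strand) and chr5:90786003-90786062 (plus strand).

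No T cell-attracting chemokine passed 1.5-fold under the rule as given, but this depended on the rule. None of the 5 measured genes of the CXCR3 and lymphocyte-attracting list passed 1.5-fold (median 0.26). The median was 0.97 with barcodes thinned before the rule, 0.62 with C1q at 0.8%, 0.99 without the exclusion of other states and 3.30 without other lineages' markers. Cxcl10, the second CXCR3 ligand, was at 979.7 CPM in the PBS members and 1437 in the 6C5 members (ratio 1.47, 1.31 to 1.65), and 1 cell held 40.5% of its PBS UMIs. Ccl5 was at 765 and 907 CPM (ratio 1.19, 1.04 to 1.35), Ccl4 at 6562 and 9388 CPM (ratio 1.43, 1.37 to 1.49), and Cxcl16, a chemokine for CXCR6, at 379.7 and 405 CPM (ratio 1.07, 0.886 to 1.29). Of 6 monocyte-attracting chemokines, Ccl7 (1449 and 3031 CPM, 2.09-fold, 1.91 to 2.29) and Ccl8 (223 and 1173 CPM, 5.26-fold, 4.19 to 6.68) were higher in 6C5, and the median of 0.30 was 0.92 after thinning and 1.01 without exclusions. Ccl12 was at 646 and 856 CPM (ratio 1.32, 1.15 to 1.53). Ccl2, the main CCR2 ligand, was at 2264 and 2604 CPM (ratio 1.15, 1.07 to 1.24) and Ccl6 at 1177 and 841 CPM (ratio 0.715, 0.642 to 0.798).

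**Figure D3:**
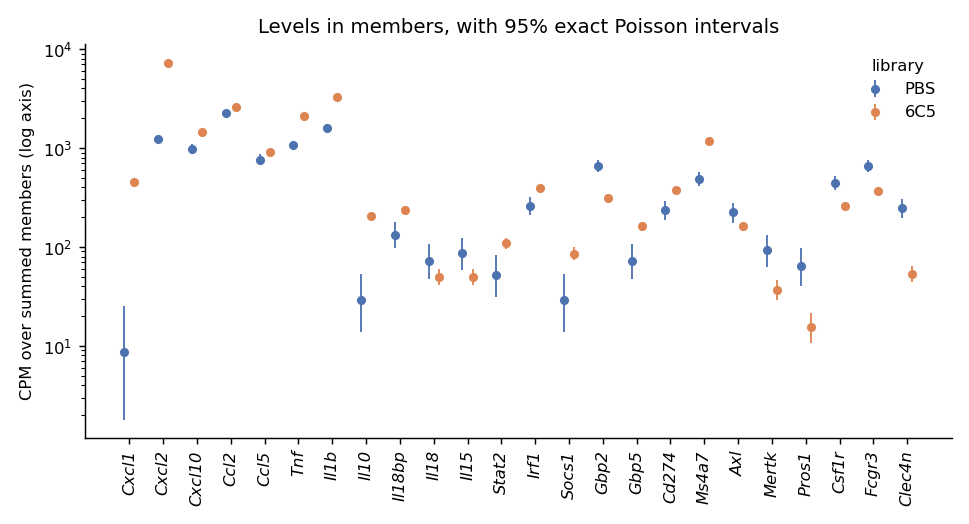
Levels in summed members (vertical log axis, CPM) of 24 named genes in each library, with exact 95% Poisson intervals. Cxcl1, Cxcl2, Il10 and Socs1 lie higher in 6C5, and Gbp2, Mertk, Pros1, Csf1r, Fcgr3 and Clec4n higher in PBS.

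Interferon pathway genes were mostly level or higher in 6C5 members. Of 16 interferon-gamma signalling genes, 7 were higher and 0 lower (median 0.51). Stat2, a transcription factor of interferon receptors, was at 52.2 CPM in the PBS members and 109 in the 6C5 members (2.08-fold, 1.29 to 3.57). Irf1, a transcription factor induced by interferon, was at 261 and 393 CPM (1.51-fold, 1.21 to 1.89). The feedback inhibitors Socs1 (29.0 and 85.6 CPM, 2.95-fold, 1.57 to 6.26, 10 UMIs in PBS) and Socs3 (246 and 470.1 CPM, 1.91-fold, 1.53 to 2.41) and the kinase Jak2 (49.3 and 110.4 CPM, 2.24-fold, 1.37 to 3.91) were higher too. Irf8, a macrophage-lineage factor, was at 301 and 243 CPM (ratio 0.807, 0.653 to 1.01) and the class II regulator Ciita at 26.1 and 37.0 CPM (ratio 1.42, 0.710 to 3.21). These directions depended on the rule: with barcodes thinned before it, the log2 ratio was -0.10 for Stat2, -0.16 for Irf1, -0.58 for Socs1 and -0.070 for the list median.

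GTPases that led the members over the comparison barcodes went both ways between libraries. Of 16, 6 were higher in 6C5 and 1 lower (median 0.23), and their summed level was 2009 CPM in PBS and 2031 in 6C5. Gbp2 was lower in 6C5, at 661 CPM in the PBS members and 314 in the 6C5 members (ratio 0.476, 0.409 to 0.555). Gbp5, which assembles inflammasomes, was at 72.5 and 162 CPM (2.23-fold, 1.49 to 3.5), Iigp1 at 81.2 and 157 CPM (1.94-fold, 1.32 to 2.96) and Tgtp1 at 8.70 and 34.1 CPM from 3 PBS UMIs. Ifi47 was at 284 and 292 CPM (ratio 1.03, 0.831 to 1.29). With barcodes thinned before the rule, Gbp5 (-0.30) and Iigp1 (-1.19) turned on the log2 scale, and the list median was -0.50. Without the exclusion of other states that median was -0.24, so no direction is given for the list. Of 27 type I interferon-stimulated genes, 7 were higher and 0 lower (median 0.40), among them the deconjugating enzyme Usp18 (72.5 and 156 CPM, 2.16-fold, 1.44 to 3.38) and Cmpk2 (58.0 and 113 CPM), of which 1 cell held 60% in PBS. Irf7, the amplifier of type I interferon, was at 945 and 1088 CPM (ratio 1.15, 1.02 to 1.30).

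Among cytokines of the interleukin 18, 12, 15 and 27 list, 6 of 9 were higher in 6C5 and 1 lower (median 0.97). Of these, 3 were Il1b, Il1rn and Tnf, given above. The largest difference was in Il10, the suppressive cytokine, at 29.0 CPM in the PBS members and 207 in the 6C5 members (7.15-fold, 3.85 to 15). It had UMIs in 3 of 30 PBS members and 67 of 173 6C5 members, and after thinning in 3.33% of PBS members and 30.1% of 6C5 members, against 3.88% and 5.46% of T cells. The PBS share was close to that of T cells. Whether T cells lack Il10 was not tested, so their share is not read as a background. Il18 was at 72.5 and 50.0 CPM (ratio 0.691, 0.444 to 1.11) and its antagonist Il18bp at 133 and 239 CPM (1.79-fold, 1.32 to 2.48). The interval for the antagonist lay above 1, and that for the cytokine included 1. Il27, which acts on T cells, was at 20.3 and 56.6 CPM from 7 and 121 UMIs. Il15, which sustains NK and CD8 T cells, was lower in 6C5 at 87.0 and 50.0 CPM (ratio 0.576, 0.381 to 0.894). Il12b rested on 1 PBS cell and 4 6C5 cells.

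Antigen presentation genes mostly stayed within 1.5-fold between the libraries under the rule as given. None of 8 MHC class II genes passed it (median 0.28), though that median was 0.83 with C1q at 0.8%, 0.67 after thinning and -0.012 without the exclusion of other states. H2-Aa, a class II chain, was at 5252 and 6264 CPM (ratio 1.19, 1.14 to 1.25), H2-Ab1 at 3823 and 4392 CPM (ratio 1.15, 1.08 to 1.22) and the invariant chain Cd74 at 16472 and 20397 CPM (ratio 1.24, 1.20 to 1.27). Of 18 class I genes, 1 was higher and 1 lower (median 0.14), with H2-K1 at 3035 and 4261 CPM (ratio 1.40, 1.32 to 1.5). Among 12 costimulatory and checkpoint ligands, 3 were higher and 0 lower. Cd274, the gene of PD-L1, was at 235 CPM in the PBS members and 379.8 in the 6C5 members (1.62-fold, 1.29 to 2.06), with 1 cell holding 28.4% of the PBS UMIs. Tnfsf9, the ligand of 4-1BB, was at 461 and 837 CPM (1.82-fold, 1.54 to 2.15), and Pdcd1lg2, the gene of PD-L2, at 11.6 and 24.8 CPM from 4 PBS UMIs (ratio 2.14, 0.788 to 8.14). The costimulators Cd40 (214 and 232 CPM, ratio 1.08, 0.844 to 1.40), Cd86 (336 and 321 CPM, ratio 0.954, 0.783 to 1.17) and Cd80 (20.3 and 23.9 CPM, ratio 1.18, 0.531 to 3.07) had intervals that included 1. Ido1, which degrades tryptophan, had 0 UMIs in PBS and 2 in 6C5, and Nos2 2 and 15.

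The treatment label names an antibody against AXL and does not state whether it binds mouse AXL. Axl, the mouse gene of this receptor, was detected in 24 of 30 PBS members and 126 of 173 6C5 members. It was at 223 CPM in the PBS members and 163 in the 6C5 members (ratio 0.729, 0.568 to 0.946), above the comparison barcodes in PBS (137 CPM) and close to them in 6C5 (138). Mertk, the TAM receptor that drives uptake of dying cells, was at 92.8 and 37.0 CPM (ratio 0.398, 0.261 to 0.621), and Tyro3, the other receptor, at 0 UMIs in both. The bridging ligand Pros1 was at 63.8 and 15.4 CPM (ratio 0.242, 0.137 to 0.436). Gas6, the ligand of Axl, had 2 and 8 UMIs, so members held almost none. Mertk and Pros1 were thus lower in 6C5, while 4 of the 8 measured genes of this list were higher, among them the integrin Itgav (69.6 and 230.1 CPM, 3.31-fold, 2.20 to 5.21) and the scavenger receptor Cd36 (104 and 233 CPM, 2.23-fold, 1.59 to 3.22, 1 PBS cell holding 52.8%). The list median was 0.60, and -0.21 without the exclusion of other states.

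Resident-type and lipid genes also moved apart. C5ar1, the receptor for the complement fragment C5a, was at 119 and 406 CPM (3.42-fold, 2.50 to 4.80), and the folate receptor Folr2 at 17.4 and 109 CPM (6.27-fold, 2.84 to 17.3), from 6 PBS UMIs. The mannose receptor Mrc1 was lower in 6C5, at 162 and 54.7 CPM (ratio 0.337, 0.243 to 0.472). Of 10 measured complement and resident macrophage genes, 3 were higher and 1 lower (median 0.32, -0.22 without the exclusion of other states). Of 17 lipid and lysosome genes, 6 were higher and 0 lower (median 0.24, 0.62 without that exclusion), with the cholesterol exporters Abca1 (11.6 and 96.8 CPM, 8.35-fold, 3.21 to 30.9) and Abcg1 (66.7 and 134 CPM, 2.01-fold, 1.32 to 3.23) and the cathepsin Ctsl (148 and 413 CPM, 2.79-fold, 2.11 to 3.78). Apoe was at 1919 and 2671 CPM (ratio 1.39, 1.28 to 1.51) and Trem2 at 249 and 254 CPM (ratio 1.02, 0.809 to 1.29). The exporters, C5ar1 and Folr2 were thus higher while Apoe, Trem2 and most of the list stayed within 1.5-fold.

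Under the rule as given, immunosuppressive and repair genes split, with 3 of 13 higher and 4 lower (median -0.0042). The median was 0.69 after thinning, 0.82 without the exclusion of other states and 0.82 without other lineages' markers. Spp1 was at 43.5 and 388 CPM (8.92-fold, 5.38 to 16.0), and 1 cell held 53.3% of its UMIs in PBS and 35.6% in 6C5. The collagenase Mmp13 had 3 UMIs in 1 PBS cell and 123 in 24 6C5 cells. Fibronectin (Fn1) was at 299 and 11.2 CPM, but 1 PBS cell held 80.6% of it. Arg1, limited by the rule, had 9 UMIs in 1 PBS cell and 76 in 28 6C5 cells. For each of Spp1, Fn1, Mmp13 and Arg1, 1 PBS cell thus held most of the PBS UMIs.

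Clec4n, Fcgrt and Tmem176b were among the 10 genes furthest lower in 6C5. Csf1r, Adgre1 and the Fc gamma receptor list, which are outside these 10, are given beside them. Clec4n, the gene of dectin-2, was at 246 CPM in the PBS members and 53.8 in the 6C5 members (ratio 0.218, 0.164 to 0.292). The neonatal Fc receptor Fcgrt was at 188 and 66.0 CPM (ratio 0.350, 0.259 to 0.477) and the membrane protein Tmem176b at 357 and 145 CPM (ratio 0.405, 0.328 to 0.504). Csf1r, the receptor for colony-stimulating factor 1, was at 443 and 259 CPM (ratio 0.584, 0.488 to 0.704), though the macrophage gene Adgre1 was at 310.1 and 529 CPM (ratio 1.70, 1.40 to 2.1). Of the 5 genes of the Fc gamma receptor list, Fcgr3 (658 and 365 CPM, ratio 0.554, 0.478 to 0.646) and the inhibitory Fcgr2b (583 and 348 CPM, ratio 0.597, 0.510 to 0.701) were lower. Fcgr4 (730.4 and 708 CPM, ratio 0.970, 0.848 to 1.11) and Fcgr1 (609 and 801 CPM, ratio 1.32, 1.14 to 1.53) were within 1.5-fold. Only Fcer1g, the gene of a signalling chain shared with other receptors, was higher (4151 and 6379.6 CPM, ratio 1.54, 1.46 to 1.62). The log2 ratio of Fcgr2b turned to 0.33 with barcodes thinned before the rule. The growth-linked RNA Gas5, the cold-shock gene Rbm3, metallothionein Mt1, Zc3h7a, Cdk8 and 2410006H16Rik completed the 10 lowest genes, with Gbp2. Apart from Cxcl1, Cxcl2, Spp1, Il10, Abca1, Folr2 and Ccl8, the 10 highest genes held the lymphocyte activation marker Cd69 (11.6 and 97.3 CPM), the protease Adam8 (17.4 and 130.0 CPM) and G530011O06Rik (17.4 and 109 CPM).

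**Figure D4:**
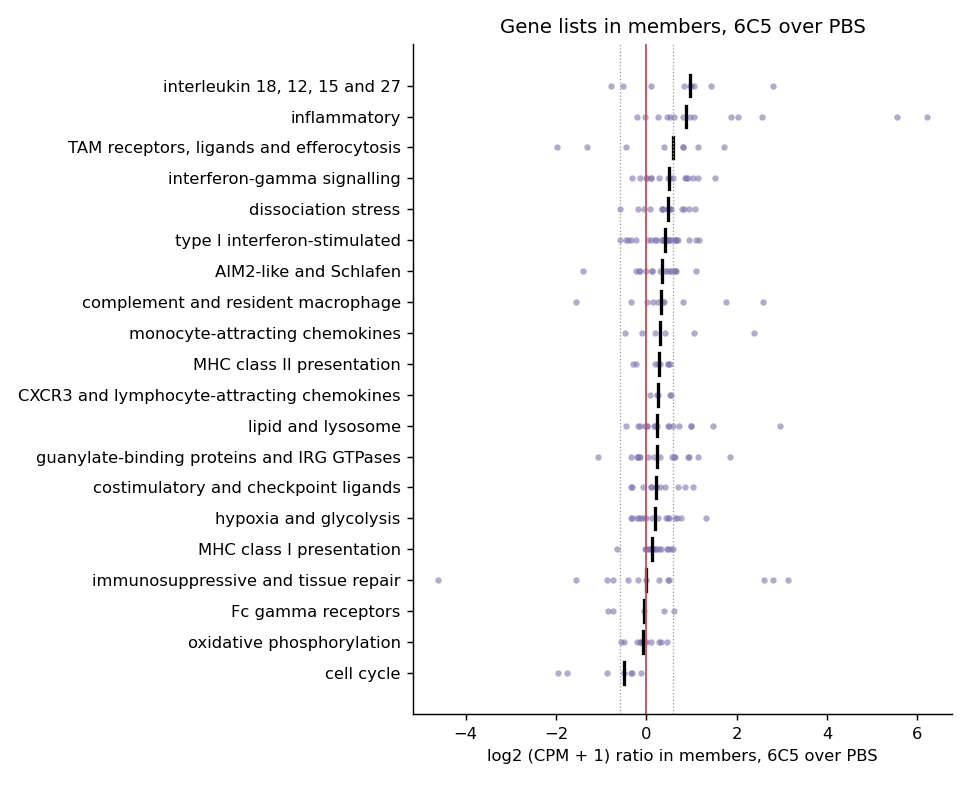
Log2 ratio of CPM plus 1, 6C5 over PBS, in members (horizontal axis) for each measured gene of 20 lists (points), with the list median (black bars). The red line is the median of all genes and dotted lines mark 1.5-fold. The medians of the interleukin and inflammatory lists lie furthest right (0.97 and 0.89) and that of cell cycle genes furthest left (-0.49). The interleukin list also holds Il1b, Il1rn and Tnf.

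The same contrast in macrophages outside the gate is set beside the members for the main genes. It uses the same 2 libraries, and a difference between states was not tested. The log2 ratio of Cxcl2 was 2.55 in members, 1.03 in comparison barcodes, 1.56 in barcodes over the Negr1 limit alone (209 and 63 cells) and 1.25 in those over the Ctsk limit alone (95 and 301 cells). For Il10 the 4 values were 2.80, 3.46, 2.91 and 1.65. For Mertk they were -1.30, 0.23, -0.83 and -0.36, and for Csf1r -0.77, -0.66, -1.14 and -0.60. Cxcl2 and Il10 were thus higher in 6C5, and Csf1r lower, in all 4 sets of barcodes, while Mertk had both signs. Medians of all measured genes were -0.015 in members and -0.042, -0.20 and -0.10 in the other sets, in the same order. Over the Negr1 limit alone, 25.4% of genes were called lower in 6C5 and 8.11% higher, so values are read beside these. Medians of the type I interferon-stimulated list were 0.40, 0.64, 1.01 and 0.72. Those of the inflammatory list were 0.89, 0.71, 1.53 and 0.50. Those of the interleukin 18, 12, 15 and 27 list, which also holds Il1b, Il1rn and Tnf, were 0.97, 0.47, 1.35 and 0.98. In each of these lists members did not have the largest median.

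Within the 6C5 library, members with more gate UMIs held more GTPase and MHC class II RNA, but not more of every interferon-type list. From 44 members with 3 to 5 gate UMIs, over 83 with 6 to 20, to 46 with more than 20, the summed GTPase list stood at 1353, 1892 and 2688 CPM. The MHC class II list stood at 33676, 40897 and 47663 CPM, Il18bp at 189.5, 237 and 274 CPM and AW112010 at 531, 1013 and 1613 CPM. The type I interferon-stimulated list stood at 15324, 15088 and 14517 CPM, the CXCR3 chemokine list at 15938, 14935 and 12124 CPM and Cxcl10 at 1760.0, 1263 and 1474 CPM, with no increase. Mrc1 went down, at 91.5, 54.3 and 30.7 CPM. Cxcl2 (7454, 7372 and 6977 CPM) and Ms4a7 (1233, 1188 and 1159.9 CPM) were nearly level. Median depth also rose over these bands, from 10105 over 11176 to 14666 UMIs, and its part was not tested. In PBS, with bands of 8, 14 and 8 cells, the GTPase list (1105, 2719 and 1628 CPM) was highest in the middle band, and Mrc1 again went down (356, 139 and 55.5 CPM).

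**Figure D5:**
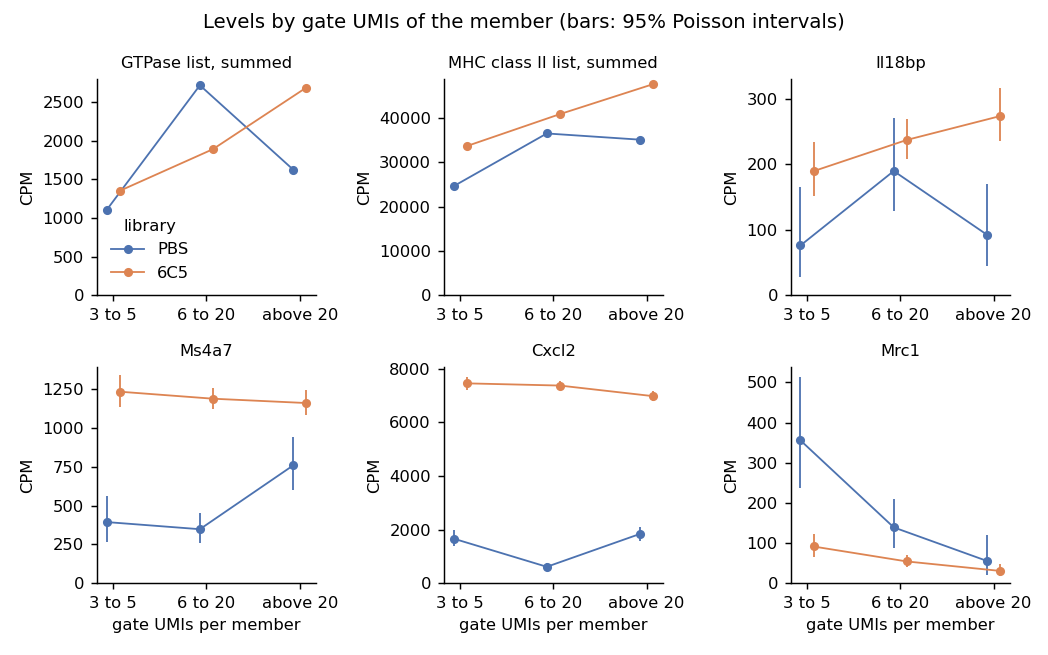
Levels (vertical axes, CPM) of 2 lists and 4 genes in members grouped by their gate UMIs (horizontal axes), by library, with 95% Poisson intervals for the genes. The GTPase and MHC class II sums go up over the bands in 6C5, Mrc1 goes down in both libraries, and Cxcl2 is higher in 6C5 in each band.

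Members without a Cxcl9 UMI entered on Calhm6 and Gbp2b. In 6C5 the 46 such members had Il18bp at 236 against 239.6 CPM in the 127 with Cxcl9, and in PBS the 5 such members had it at 82.7 against 147 in the other 25. The GTPase list was at 1974 against 2051 CPM in 6C5 and 1570.4 against 2126 in PBS. Il18bp and the GTPases were thus close in 6C5 and lower without Cxcl9 in PBS, where the values rest on 5 cells. Cxcl10 was at 2142 against 1187 CPM in 6C5 and 138 against 1204 in PBS, in opposite directions. Ly6c2 was at 1669 against 1037 CPM in 6C5 and 1171 against 987 in PBS.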

How the data were processed

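Single-cell RNA was measured in 1 library of CD45+ tumour cells per group, PBS and 6C5, grouped by the treatment label. The deposited values are raw UMI counts of 32285 genes in every barcode, not filtered or normalized. Per the file headers they came from Cell Ranger 7.1.0, and the submitters' processing notes list version 2.1.1 and mm10. The libraries held 78923567 and 85921419 UMIs. The treatment of intronic reads is not stated.

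The rule given in the report was applied to all barcodes (Python 3.11.15, scipy 1.17.1). The members and gene lists were chosen with earlier results of these data known. Counts of members were summed per library and scaled to CPM, and ratios are of CPM with exact conditional binomial 95% intervals, log2 ratios of CPM plus 1. Shares have Clopper-Pearson intervals, and ratios of shares an interval on the log scale. No test across samples could be made. T cells whose shares are set beside those of members had at least 3 Cd3 UMIs and under 0.05% C1q UMIs. Doublets were removed only through the rule: the Scrublet threshold (scanpy 1.11.5) called 0 and 0 of 13992 and 13541 barcodes, so it had not worked. The steps were tested on simulated counts.

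Genes named are the rule's genes and markers, chosen genes of interest, up to 4 members per list with the largest absolute log2 ratio among those with at least 50 UMIs, the 10 genes highest and the 10 lowest in 6C5 among those of at least 200 UMIs, and the 15 highest and 10 lowest over comparison barcodes. Mitochondrial, ribosomal protein, haemoglobin, receptor, immunoglobulin, sex-linked and other cell types' marker genes were left out of these rankings. Marker genes of other cell types are named where they are counted. Some genes of the rule for naming are not reported here. For duplicated symbols the entry with most UMIs was used. For TMM factors, edgeR 4.0.16 was used (R 4.3.3). Promoter windows came from RefSeq (GRCm38.p6). Results were recomputed under 17 other settings, of depth, mitochondrial share, gate, thinning, C1q, exclusions, doublets, free RNA, scaling and thresholds, and 1 chosen after seeing the data.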

Additional observations from a re-analysis of the deposited data

How the results depend on the processing

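The ratio of member shares stayed between 4.52 and 6.85 under 8 settings of depth, mitochondrial share, gate, C1q, Arg1 and doublets, and was 2.47 with barcodes thinned before the rule and 1.31 without the exclusion of other macrophage states. The count of genes higher in 6C5 was 1104 with TMM factors, 1546 at 10 UMIs per gene, 237 at 200, 265 past 2-fold and 1169 without each gene's highest cell. The count of lower genes was 1083 after thinning, 1747 without exclusions, 306 without cells holding other lineages' markers, 348 with TMM factors, 1874 and 116 at 10 and 200 UMIs, 143 past 2-fold and 404 without the highest cells. The inflammatory median was 1.32 after thinning, 2.09 with C1q at 0.8%, 1.60 without exclusions, 1.81 without other lineages' markers, 1.08 with TMM factors, 0.71 at 200 UMIs and 1.27 without the highest cells. The threshold settings change the number of genes or cells by their construction, and for the others the cause was not tested. The interferon-gamma signalling median was -0.070 after thinning and the GTPase median -0.50 after thinning, -0.24 without exclusions and -0.049 without other lineages' markers. Log2 ratios that changed sign after thinning were Stat2 -0.10, Irf1 -0.16, Socs1 -0.58, Gbp5 -0.30, Iigp1 -1.19, Hk2 -0.070 and Fcgr2b 0.33. Without exclusions they were Fcgr2b 0.25, Stab1 -0.14, Socs1 -0.16 and Iigp1 -0.63, and -0.21 for the TAM list. Without cells holding other lineages' markers, which left 5 PBS and 65 6C5 members, they were Cd36 -0.33, Gpnmb -0.95, Hk2 -0.93, Emp1 -0.36, Il18bp -0.0019, P4ha1 -0.46, Stat2 -0.69, Osm 5.66, Tgtp1 -0.019, Irf1 -0.34, Cmpk2 -1.42, Ero1l -0.84 and Cd274 -0.14. Over the comparison barcodes in PBS, Ccl8 was -3.97 and Thbs1 0.59 there. Osm was 0.038 without its highest cells. Of the gene values over all settings, 1616 stayed within counting error, 309 moved and 25 changed sign. No paired analysis was possible because each group has 1 library. With 30 PBS members, a gene needs 3 UMIs, 8.70 CPM, to be told from 0.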

Other observations

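By the measure given next, chemokine genes were among those that varied most from member to member. The Fano factor, the variance of UMIs over their mean in cells thinned to 4000 UMIs, was 38.6 for Ccl8, 29.6 for Ccl5, 28.7 for Cxcl10, 27.4 for Cxcl2 and 27.3 for Ccl4 in 6C5, against a median of 1.33 over 1080 genes. It was 1.37 for Il18bp, whose mean was 0.884 UMIs per cell, against means of 29.7 for Cxcl2 and 39.0 for Ccl4. Genes were not matched for their mean, and its part in these factors was not tested. Gm42418, a gene model that overlaps ribosomal RNA, had a higher factor than the chemokine genes (120.3), as did Camk1d (119), Cmss1 (109) and Cdk8 (65.8). Between Ccl8 and Ccl5 lay AY036118 (38.1), Cd74 (36.7) and Lars2 (32.2), which are not chemokine genes. These genes were chosen after their values were seen.

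AIM2-like receptors and Schlafen genes, sensors and restrictors of foreign nucleic acid, had 4 of 16 members higher in 6C5 and 1 lower (median 0.36, 0.73 with C1q at 0.8%). The DNA sensor Aim2 was at 29.0 and 63.6 CPM (ratio 2.19, 1.16 to 4.68), Ifi205 at 313 and 489 CPM (ratio 1.56, 1.28 to 1.92) and Ifi208 at 78.3 and 29.0 CPM (ratio 0.371, 0.232 to 0.606). Hypoxia and glycolysis genes had 4 of 16 higher and 0 lower (median 0.20, -0.84 without other lineages' markers). Of 15 nuclear-encoded respiratory chain genes none passed 1.5-fold, and their median of -0.077 was 0.11 with TMM factors. Cell cycle genes outside the rule had 3 of 7 measured members lower and 0 higher (median -0.49, -1.65 after thinning), with the replication gene Mcm6 at 60.9 and 15 CPM (ratio 0.246, 0.137 to 0.449) and Stmn1 at 113 and 32.7 CPM (ratio 0.290, 0.193 to 0.440). Cd79b, a B cell receptor gene, had a UMI in 14 of 30 PBS members and 17 of 173 6C5 members, and after thinning in 30% of PBS members and 2.89% of 6C5 members, against 3.49% and 1.24% of T cells. It was chosen after its values were seen.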
